A study of Mus musculus with 4 samples.

Results

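The genes described here are 10 genes of lytic cell death, read by name from a table of 47729 genes: Ripk1, Ripk3, Mlkl and Zbp1 of necroptosis, Nlrp3, Pycard, Casp1, Casp4 and Gsdmd of pyroptosis, and Casp8, which acts in both. All 10 were found in the table and all 10 were abundant enough to be tested. RNA was sequenced from tumors formed by LLC cells, a Lewis lung carcinoma line of C57BL/6 mice, injected under the skin of the back of adult mice of the same strain and removed on day 5. The LLC group came from cells labelled wild type. The LLC-Chem group came from cells that had received pEFIN plasmids for murine chemerin (1-157), a form of this secreted protein that is active without further cleavage, and that had been selected as individual clones. Each group had 2 libraries, each made from a pool of 3 tumors, so that differences between clones cannot be told apart from differences due to chemerin. The study also measured necrosis on sections of such tumors and reported a larger average necrotic area where the tumor cells expressed chemerin. The comparison made here asks whether transcripts of the machinery that ruptures cells differed between the groups.

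Necroptosis and pyroptosis are programmed forms of death in which the plasma membrane breaks open. In necroptosis, death receptors, Toll-like receptors or the nucleic acid sensor ZBP1 act through the kinases RIPK1 and RIPK3, which share a short interaction motif, and RIPK3 phosphorylates MLKL, the protein that damages the membrane. Caspase-8 cleaves the kinases and so restrains this route. In pyroptosis, a sensor such as NLRP3 gathers the adaptor ASC, the product of Pycard, and caspase-1, which matures interleukin-1β and interleukin-18 and cuts gasdermin D into a pore-forming fragment. Casp4 of the mouse encodes caspase-11, which senses bacterial lipopolysaccharide in the cytosol and cuts gasdermin D as well. Several of these genes are known as interferon-inducible, and NLRP3, ASC and caspase-1 are best known from macrophages and neutrophils.

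The values are RPM, the reads of a gene scaled by all gene reads of its library. Libraries held 28470000 to 33990000 reads on genes, as fitted from the values, and the 10 genes were covered by 106 to 3231 reads per pool. Fold changes are LLC-Chem minus LLC on log2(RPM + 0.5), tested two-sided with limma over the 13694 genes whose mean reached 1 RPM, and a gene was called at an adjusted p under 0.05. This scale understates changes of weakly expressed genes. A permutation test of a single gene with 2 pools against 2 cannot go below p = 0.33. The transfected gene Rarres2, at 102.2 and 98.2 RPM in LLC and 105.9 and 105.8 RPM in LLC-Chem, was not called (log2 fold change 0.08 by limma, adjusted p = 0.541), and so does not check the labels. The lung epithelial markers Nkx2-1, Sftpb, Sftpc and Scgb1a1 were at or near 0 in every pool, with a summed level of at most 0.25 RPM. The epithelial keratin Krt8 was present, at 82.8 to 167.1 RPM, and so was Krt18, at 109.99 to 138.8 RPM. Krt19 was at 2.10 to 15.3 RPM. The other epithelial markers listed were low, Cdh1 at 0.450 to 1.40 RPM and Epcam at 0.1999 RPM or less in each pool. Markers of this list other than Krt8 were named after their values were seen.

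Several transcripts of the lytic death machinery were called lower in LLC-Chem tumors, while Ripk1, Mlkl, Casp1 and Casp4 were not called. By limma, 6 of the 10 genes were called lower and 0 higher, against 13.5% and 9.54% of all genes tested. The log2 fold change was negative for all 10, with a median of -0.43, whereas over all genes tested it was negative for 53.7% and had a median of -0.04. None of the 10 was higher at an unadjusted p under 0.05 or by edgeR or DESeq2 either. Both LLC-Chem pools lay below both LLC pools for 9 of the 10 genes, an order found in 39.3% of the genes tested, and for 0 of the 10 both lay above (33.1% of the genes tested). Casp4 was the gene that overlapped. The genes fell into a set of 4 with a log2 fold change under -1 (Nlrp3, Zbp1, Ripk3 and Pycard), a size reached by 9.52% of the genes tested, and a set of 6 between -0.44 and -0.24. The summed level of the 10 genes was 491.3 and 442.9 RPM in LLC but 295.7 and 297.1 RPM in LLC-Chem, or 63.5% of the LLC level. In whole tumors, fewer cells of a type and less RNA per cell cannot be told apart.

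**Figure D1:**
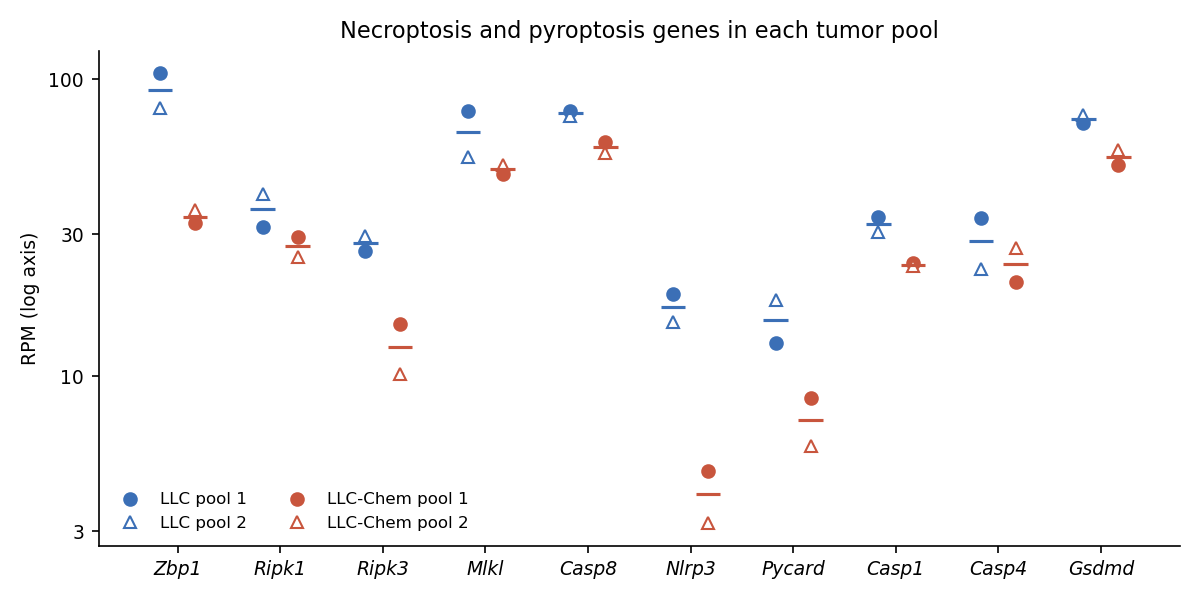
RPM (log axis) of the 10 necroptosis and pyroptosis genes in each of the 4 pools, with blue for LLC, red for LLC-Chem, circles for pool 1, open triangles for pool 2 and a bar for the group mean (n = 2). For Nlrp3, Zbp1, Ripk3 and Pycard the groups lie far apart, from 17.1 to 3.998 RPM in the mean for Nlrp3, while for Casp4 they overlap.

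Zbp1 and Nlrp3, a sensor of necroptosis and a sensor of pyroptosis, had the largest log2 fold changes of the 10 genes. Casp4, whose product is a sensor too, had the smallest (-0.24). Zbp1 (ENSMUSG00000027514, chromosome 2, 173206612 to 173218923, minus strand, GRCm38) encodes a cytosolic sensor of left-handed double-stranded nucleic acid that recruits RIPK3. The LLC pools stood at 104.7 and 79.8 RPM, the LLC-Chem pools at 32.7 and 36.2 RPM. Every LLC-Chem value was thus less than 50% of the lower LLC value, although the LLC pools themselves differed. The means of 92.3 ± 17.6 and 34.5 ± 2.47 RPM (SD, n = 2) differed by -1.40 on the log2 scale (95% interval -1.787 to -1.005, adjusted p = 0.0117 from limma). Nlrp3 (ENSMUSG00000032691, chromosome 11, 59541568 to 59566956, plus strand) encodes the inflammasome sensor that responds to potassium efflux and membrane damage. The LLC pools stood at 18.9 and 15.2 RPM, the LLC-Chem pools at 4.80 and 3.20 RPM. With 23.4% of the LLC level left, it was the most reduced of the 10 genes (17.1 ± 2.58 against 3.998 ± 1.131 RPM, SD, n = 2). Its log2 fold change was -1.98 (95% interval -2.58 to -1.38, adjusted p = 0.0128 from limma).

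Of the necroptosis kinases and their executor, Ripk3 was called and Ripk1 and Mlkl were not. Ripk3 (ENSMUSG00000022221, chromosome 14, 55784995 to 55788865, minus strand) encodes the kinase that phosphorylates MLKL. The LLC pools stood at 26.3 and 29.6 RPM, the LLC-Chem pools at 14.9 and 10.1 RPM, with no overlap. The means of 28.0 ± 2.33 and 12.5 ± 3.39 RPM (SD, n = 2) gave a log2 fold change of -1.15 (95% interval -1.67 to -0.62, adjusted p = 0.0234 from limma). Ripk1 (ENSMUSG00000021408, chromosome 13, 34002363 to 34037147, plus strand) encodes the kinase and scaffold that joins death receptors to survival, apoptosis or necroptosis. Its pools were at 31.8 and 41.1 RPM in LLC and 29.5 and 25.3 RPM in LLC-Chem. The groups did not overlap, but the nearest pools differed by only 0.11 on the log2 scale, less than the 0.36 between the LLC pools (log2 fold change -0.40, 95% interval -0.82 to 0.02, adjusted p = 0.132 from limma). Exons of other genes cover 9.01% of the exon bases of Ripk1, where counting can drop reads. Mlkl (ENSMUSG00000012519, chromosome 8, 111311797 to 111338177, minus strand) encodes the executor, a pseudokinase. It was at 78.5 and 54.8 RPM in LLC and at 47.9 and 51.5 RPM in LLC-Chem. Its second LLC pool lay close to the LLC-Chem pools, and the log2 fold change of -0.40 had an interval from -0.86 to 0.06 (adjusted p = 0.16 from limma).

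Casp8 (ENSMUSG00000026029, chromosome 1, 58795374 to 58847503, plus strand), the protease that restrains RIPK1 and RIPK3 and starts receptor-driven apoptosis, was slightly lower. Its pools were tight, at 78.4 and 75.3 RPM in LLC and 61.3 and 56.6 RPM in LLC-Chem. The change was smaller than those of Zbp1, Nlrp3 and Ripk3, and the pools of each group lay close together (76.8 ± 2.16 against 58.9 ± 3.32 RPM, SD, n = 2, log2 fold change -0.38, 95% interval -0.63 to -0.13, adjusted p = 0.0477 from limma).

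Among the inflammasome adaptor, the inflammatory caspases and the pore former, Pycard fell most. Pycard (ENSMUSG00000030793, chromosome 7, 127989708 to 127993867, minus strand) encodes ASC, the adaptor that polymerises into specks. The LLC pools stood at 12.9 and 18.1 RPM, the LLC-Chem pools at 8.45 and 5.80 RPM. The LLC-Chem pools were lower, and the pools of each group differed by about the same amount, 0.47 and 0.51 on the log2 scale. The means of 15.5 ± 3.64 and 7.12 ± 1.87 RPM (SD, n = 2) gave a log2 fold change of -1.07 (95% interval -1.71 to -0.44, adjusted p = 0.0382 from limma). Exons of another gene cover 12.8% of its exon bases. Gsdmd (ENSMUSG00000022575, chromosome 15, 75862327 to 75867408, plus strand), which encodes gasdermin D, was at 71.3 and 75.5 RPM in LLC and 51.5 and 58.0 RPM in LLC-Chem. As for Casp8, the change was small and the pools of each group lay close together (73.4 ± 3.003 against 54.7 ± 4.59 RPM, SD, n = 2, log2 fold change -0.42, 95% interval -0.70 to -0.15, adjusted p = 0.0464 from limma).

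Casp1 and Casp4 are neighbours on the plus strand of chromosome 9, Casp1 (ENSMUSG00000025888) from 5298517 to 5307265 and Casp4 (ENSMUSG00000033538) from 5308828 to 5336783. Casp1, the protease of the inflammasome, was at 34.4 and 30.5 RPM in LLC and at 24.0 and 23.5 RPM in LLC-Chem. It lay lower in both LLC-Chem pools by about as much as Gsdmd but was just not called (log2 fold change -0.44, 95% interval -0.75 to -0.13, adjusted p = 0.0552 from limma). Casp4 was at 34.1 and 22.9 RPM in LLC and 20.7 and 26.9 RPM in LLC-Chem. Its groups overlapped, and the difference was within the spread of the pools (log2 fold change -0.24, 95% interval -0.82 to 0.34, adjusted p = 0.466 from limma). This interval does not exclude a fall as large as those of Casp1, Gsdmd or Casp8.

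**Figure D2:**
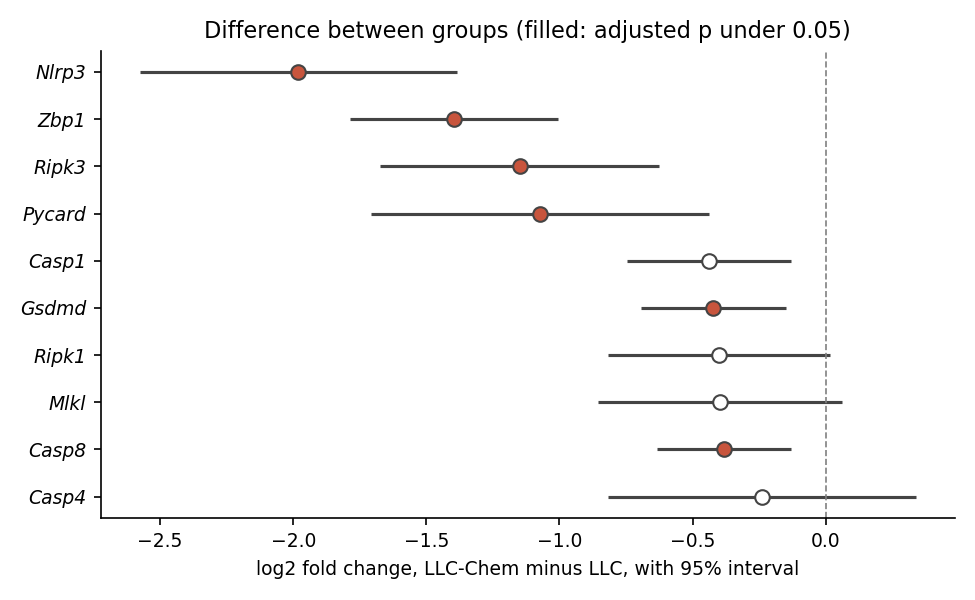
Log2 fold change of each gene, LLC-Chem minus LLC, with its 95% interval from limma (2 pools per group, filled points called at an adjusted p under 0.05). Nlrp3 (-1.98), Zbp1 (-1.40), Ripk3 (-1.15) and Pycard (-1.07) stand to the left of the other 6 genes, which lie between -0.44 and -0.24.

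The calls of Nlrp3, Zbp1 and Ripk3 were kept in 11 of 16 alternative settings each, that of Pycard in 9, and those of Gsdmd and Casp8 in 4 each. Gsdmd and Casp8 were not called with TMM scaling (adjusted p = 0.0622 and 0.0572 from limma). When any 1 pool was left out, limma called 0 of all 13694 genes, against 2578 to 4973 at an unadjusted p under 0.05, and hence 0 of these 10. Without a single pool the log2 fold change ran from -2.24 to -1.72 for Nlrp3, from -1.59 to -1.20 for Zbp1, from -1.42 to -0.88 for Ripk3 and from -1.33 to -0.82 for Pycard. That of Casp4 became 0.04 without the first LLC pool.

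The order of the levels changed with the groups. Per kilobase of exon, which allows a comparison between genes, the LLC tumors held most of Gsdmd (30.9 ± 1.26 RPM per kilobase, SD, n = 2), Mlkl (28.9 ± 7.27), Casp8 (26.6 ± 0.745) and Zbp1 (26.1 ± 5.00). Mlkl and Zbp1 spread so widely between pools that neither can be placed apart from its neighbours. Casp1 followed at 21.7 ± 1.84, Ripk3 at 12.2 ± 1.02 and Casp4 at 7.68 ± 2.12 RPM per kilobase, and Ripk1, Nlrp3 and Pycard came last at 4.37, 4.21 and 4.08 RPM per kilobase, within their spread of each other. In LLC-Chem tumors Gsdmd (23.0 ± 1.93 RPM per kilobase), Mlkl (21.6 ± 1.11) and Casp8 (20.4 ± 1.15) still led and were not separated beyond their spread. Zbp1, at 9.77 ± 0.701 RPM per kilobase, now stood below Casp1 at 15.9 ± 0.259, and Nlrp3 was last at 0.985 ± 0.279. The exon length covers the exons of all annotated transcripts, which lowers these values for genes with long rare exons.

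Promoter sequence was examined for genes that differed together. The RefSeq table for GRCm38.p6 held 11 promoters of 8 of the 10 genes, each with 250 bases before and 50 after the start, and none of Zbp1 and Gsdmd. Promoters of 3 of the called genes are shown, and capitals mark ACGTG on either strand, the core of the element bound by hypoxia-inducible factors and part of the E-box CACGTG.
Ripk3 (chr14:55788808-55789107, minus strand): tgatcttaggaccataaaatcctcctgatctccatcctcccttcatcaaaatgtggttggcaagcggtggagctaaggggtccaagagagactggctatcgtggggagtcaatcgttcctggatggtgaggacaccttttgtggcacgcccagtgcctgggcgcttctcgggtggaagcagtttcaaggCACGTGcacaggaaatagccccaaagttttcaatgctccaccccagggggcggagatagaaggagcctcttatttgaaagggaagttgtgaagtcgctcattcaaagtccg
Nlrp3 (chr11:59541319-59541618, plus strand): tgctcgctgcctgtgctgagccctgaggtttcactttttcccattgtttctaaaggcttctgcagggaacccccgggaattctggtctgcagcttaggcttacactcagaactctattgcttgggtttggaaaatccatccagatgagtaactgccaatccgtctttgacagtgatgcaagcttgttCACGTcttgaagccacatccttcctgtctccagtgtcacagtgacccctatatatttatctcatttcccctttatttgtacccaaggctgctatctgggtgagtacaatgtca
Pycard (chr7:127993818-127994117, minus strand): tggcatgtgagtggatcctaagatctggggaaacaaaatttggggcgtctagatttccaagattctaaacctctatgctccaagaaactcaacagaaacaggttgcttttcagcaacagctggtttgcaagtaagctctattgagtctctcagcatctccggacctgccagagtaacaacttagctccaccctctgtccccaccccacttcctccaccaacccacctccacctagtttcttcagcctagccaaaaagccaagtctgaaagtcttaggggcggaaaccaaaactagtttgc
The match in Ripk3 is the palindrome CACGTG, in which the matches of both strands overlap and which begins 61 bases before the start. In Nlrp3 the match begins 63 bases before the start, on the other strand, and the second Nlrp3 promoter in the table had none. Pycard had none. Of the 11 promoters 3 had a match, the other being that of Casp1, while 19.6% of all 32851 promoters had one. The core of the interferon-stimulated response element (GAAA, any 2 bases, GAAA) and the STAT site (TTC, any 3 bases, GAA), both searched on both strands, occurred only in the second Ripk1 promoter of the table, whereas 3.44% and 8.30% of all promoters held them. Such matches describe letters in these windows and not binding.

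Related genes were read from 8 lists of 89 genes, 7 of them of these pathways and 1 of interferon-stimulated genes, and 77 genes were tested. Of these, 27 were called lower and 1 higher, against 13.5% and 9.54% of all genes tested, and the median log2 fold change was -0.37. The 16 interferon-stimulated genes supplied 11 of the 27 lower calls. In the list of death ligands, receptors and adaptors, 2 of 12 tested genes were called lower and 0 higher, which for the lower calls is near the 13.5% of all genes. Tnfrsf1b, a receptor for tumor necrosis factor that is common on leukocytes, fell from 153.1 and 192.7 to 59.5 and 30.1 RPM (log2 fold change -2.01 by limma, adjusted p = 0.0179). Tnf itself fell from 11.1 and 6.15 to 2.85 and 1.499 RPM (log2 fold change -1.76 by limma, adjusted p = 0.0308). Tnfrsf1a, the receptor that signals to RIPK1, was the most abundant of the list, at 223.4 and 237.7 RPM in LLC and 193.2 and 176.5 RPM in LLC-Chem, and was not called (log2 fold change -0.32 by limma, adjusted p = 0.0752).

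Among the 13 genes for ubiquitin and kinase checks on RIPK1, 2 were called lower, 1 higher and 10 not called, shares near the 13.5% and 9.54% of all genes tested. Birc2, which encodes the ubiquitin ligase cIAP1 that holds RIPK1 in its survival form, rose from 38.8 and 33.5 to 55.6 and 69.6 RPM (log2 fold change 0.78 by limma, adjusted p = 0.026). Birc3, which encodes the related ligase cIAP2, fell from 39.8 and 35.4 to 26.0 and 21.8 RPM (log2 fold change -0.65 by limma, adjusted p = 0.0331). Otulin, which removes linear ubiquitin chains, went down from 43.4 and 40.3 to 30.4 and 28.6 RPM (log2 fold change -0.50 by limma, adjusted p = 0.0348). Rbck1, part of the complex that makes these chains and the most abundant of the list, went from 142.6 and 133.0 to 117.6 and 118.0 RPM and was not called (limma, adjusted p = 0.134). The median of the list was -0.02.

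Among the other inflammasome sensors and their helpers, 5 of 12 tested genes were called lower and 0 higher, against 13.5% and 9.54% of all genes tested. Mefv, which encodes the sensor pyrin, fell from 33.4 and 25.4 to 5.85 and 2.55 RPM (log2 fold change -2.75 by limma, adjusted p = 0.0136), more than any of the 10 genes above. Nlrc4, the partner of the NAIP receptors for bacterial proteins, fell from 4.15 and 3.90 to 1.20 and 0.700 RPM (log2 fold change -1.66 by limma, adjusted p = 0.0172). Gbp5, an interferon-inducible GTPase that promotes NLRP3 assembly, had a log2 fold change of -1.71 and Naip2 one of -1.09 by limma (adjusted p = 0.0248 and 0.0275). Naip5, named after its values were seen, was the fifth (log2 fold change -0.68 by limma, adjusted p = 0.044). Of the 50-base words of Naip2 and Naip5, 19.1% and 36.8% also occur in another gene, so that reads may be shared within this family. Txnip was the most abundant of the list, at 213.3 and 237.3 RPM in LLC and 224.7 and 149.1 RPM in LLC-Chem, and was not called (limma, adjusted p = 0.313). Aim2, a sensor of cytosolic DNA, was at 28.9 and 21.8 RPM in LLC and 17.7 and 21.1 RPM in LLC-Chem (log2 fold change -0.37 by limma, adjusted p = 0.184). It was named after its values were seen.

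Il1b and Il18, whose products are matured by caspase-1, were called lower as well. Of the 7 genes for cytokines released by lytic death and their antagonists, 4 were called lower and 0 higher. Over all genes tested these shares were 13.5% and 9.54%. The median log2 fold change of the list was -1.17. Il1b fell from 63.6 and 26.2 to 8.40 and 2.998 RPM (log2 fold change -2.89 by limma, adjusted p = 0.0265), with LLC pools that lay far apart. Il18 fell from 17.2 and 23.4 to 8.90 and 8.40 RPM (log2 fold change -1.17 by limma, adjusted p = 0.0188). The antagonist Il18bp had a log2 fold change of -1.57 and Il1a one of -1.44, both called lower by limma (adjusted p = 0.0147 and 0.0298). Hmgb1, a nuclear protein released by ruptured cells and the most abundant of the list, was at 338.5 and 301.5 RPM in LLC and 276.6 and 254.2 RPM in LLC-Chem and was not called (limma, adjusted p = 0.136). Il33, at 243.8 and 160.7 RPM in LLC and 203.6 and 197.3 RPM in LLC-Chem, overlapped and was not called (limma, adjusted p = 0.953). Il1rn overlapped and was not called either (limma, adjusted p = 0.22). Il33 and Il1rn were named after their values were seen.

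Among the other gasdermins, Gsdme passed the limit of 1 RPM for testing and the rest of those listed did not. Gsdma2, Gsdma3, Gsdmc2 and Gsdmc3 were at 0 RPM in all pools, where a count of 0 allows up to 0.088 to 0.105 RPM (3 reads, counting error only), and only 2 of the 10 genes of the list of gasdermins and membrane rupture were tested. Ninj1, whose product tears the membrane in the last step of lysis, fell from 147.4 and 170.3 to 106.1 and 66.8 RPM (log2 fold change -0.91 by limma, adjusted p = 0.0429). Gsdme, listed in the table as Dfna5 and cut by caspase-3, went the other way without being called, from 17.6 and 14.3 to 20.6 and 21.7 RPM (log2 fold change 0.40 by limma, adjusted p = 0.111). It was named after its values were seen.

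Of 9 tested genes of the ESCRT complexes, which seal gasdermin and MLKL pores, 1 was called lower and 0 higher, a share near the 13.5% and 9.54% of all genes tested, and their median was -0.03. The gene called was Chmp4b, at 284.9 and 265.9 RPM in LLC and 210.1 and 193.3 RPM in LLC-Chem (log2 fold change -0.45 by limma, adjusted p = 0.0365). Pdcd6ip, the most abundant, was at 266.1 and 255.8 RPM against 283.1 and 284.9 RPM (adjusted p = 0.375 from limma). Of the apoptotic caspases and Apaf1, the adaptor of the apoptosome, Apaf1 was the most abundant, at 75.4 and 73.2 RPM in LLC and 60.5 and 70.4 RPM in LLC-Chem, and was not called (limma, adjusted p = 0.264).

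**Figure D3:**
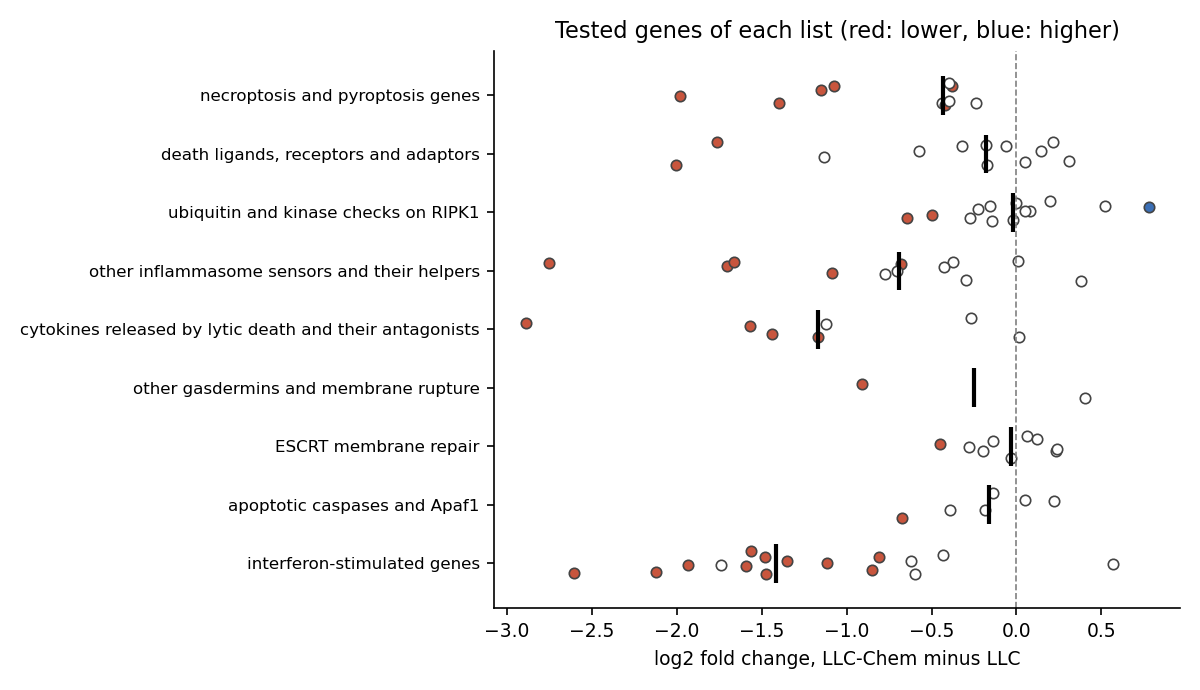
Log2 fold change (LLC-Chem minus LLC) of the tested genes of the 10 necroptosis and pyroptosis genes and of 8 lists of related genes, with red for genes called lower, blue for genes called higher, open points for genes not called and a bar for the median. The medians run from -1.41 for interferon-stimulated genes to -0.02 for the ubiquitin and kinase checks on RIPK1.

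Most interferon-stimulated genes and leukocyte markers were called lower as well. Of 16 interferon-stimulated genes, 11 were called lower and 0 higher (median log2 fold change -1.41), against 13.5% and 9.54% of all genes tested. In sum the 16 genes held 2262 and 1249 RPM in LLC but 659.2 and 899.9 RPM in LLC-Chem. Irf7, a transcription factor of the interferon response and the most abundant, fell from 332.9 and 234.6 to 60.0 and 67.9 RPM (log2 fold change -2.12 by limma, adjusted p = 0.009). The log2 fold changes of Oas1a, Mx1 and Oasl2, which act against viruses, were -1.59, -2.61 and -1.12 by limma (adjusted p = 0.0116, 0.0156 and 0.0265), although 57.6% of the 50-base words of Oas1a also occur in other genes. Irf1 and Ifi44, named after their values were seen, had groups that overlapped and were not called, and Irf1 had a positive log2 fold change (0.57), with 100.6 and 78.1 RPM in LLC and 84.1 and 206.8 RPM in LLC-Chem. Il18bp in the list of cytokines is likewise known as interferon-inducible.

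Of 7 general leukocyte markers, 6 were called lower. The share called lower over all genes tested, to be set beside each count of this paragraph, was 13.5%. Led by Laptm5, they summed to 1168 and 1326 RPM in LLC and to 677.6 and 413.4 RPM in LLC-Chem, or 43.8% of the LLC level. Of 12 macrophage and monocyte markers, led by Lyz2, 5 were called lower, and the sum was 48.6% of the LLC level (5935 and 9342 against 4783 and 2637 RPM). Lyz2 made up much of this sum, at 2596 and 5162 RPM in LLC and 2229 and 1030 RPM in LLC-Chem. It was itself not called (limma, adjusted p = 0.106). Mrc1, named after its values were seen, stayed at 96.1% of its LLC level. Of 5 tested neutrophil markers 4 were called lower, and the sum over the 7 listed was 19.3% of the LLC level (272.0 and 223.4 against 62.9 and 32.7 RPM). Ly6g, which defines neutrophils and was singled out after its values were seen, was at 0.1999 RPM or less in each pool. Of 5 tested T and NK cell markers, led by Gzmb, 4 were called lower, and the 9 listed summed to 49.5 and 26.0 RPM against 4.997 and 1.449 RPM. Of 8 endothelial markers, led by Pecam1, 7 were called lower, with a sum of 256.7 and 211.0 RPM against 71.1 and 40.3 RPM. The summed level of the necroptosis and pyroptosis genes fell less, to 63.5%, while Nlrp3 at 23.4% of the LLC level lay below the leukocyte (43.8%) and macrophage (48.6%) sums, close to the endothelial sum (23.8%) and above the neutrophil (19.3%) and T and NK cell (8.54%) sums. The part of these cells and of the interferon response in the differences of the 10 genes was not tested.

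The remaining lists were small or mixed, and their counts stand beside 13.5% called lower and 9.54% called higher over all genes tested. Of 3 tested dendritic cell markers 1, Flt3, was called lower (sum over the 5 listed 35.2 and 32.3 against 28.0 and 27.2 RPM, led by Itgax), as was the 1 tested B cell marker, Cd79b. Of 7 fibroblast markers, led by Col3a1, 3 were called lower (Col1a1, Col1a2 and Pdgfrb) and 1 higher (Pdgfra). Of the tested markers of epithelial cells (3, led by Krt8), keratinocytes (1, Krt10) and erythroid cells (3, led by Hbb-bs), 0 were called by limma. The erythroid sum was 90.4 and 35.8 RPM in LLC and 115.6 and 3.55 RPM in LLC-Chem, with the second LLC-Chem pool far below the others. Among adipocyte markers, led by Fabp4, 1 of 3 tested, Cfd, was called higher, and the 1 tested skeletal muscle marker, Tnnt3, was also called higher, with Ckm and Myh4 at 0 in all pools. Flt3, Cfd and the 4 fibroblast markers called were named after their values were seen. Their part in the results above was not tested either.

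Which pool of a group was the higher one differed among the 10 genes, at shares near those of all genes tested. For 14 of 16 interferon-stimulated genes the higher pools were the first of LLC and the second of LLC-Chem, an order shown by 31.5% of all genes tested. Mlkl, Zbp1 and Casp4 shared this order, as did 9 of 13 genes for ubiquitin and kinase checks on RIPK1. Macrophage markers showed the opposite order, higher in the second LLC pool and in the first LLC-Chem pool, for 9 of 12 genes, as did 25.2% of all genes tested. Ripk1, Ripk3 and Pycard shared that order, as did 6 of 7 fibroblast markers. Neither order was thus particular to interferon-stimulated genes or to macrophage markers. All 7 leukocyte and all 12 macrophage markers exceeded, in the first LLC-Chem pool, their level in the other, as did Nlrp3, Casp1 and Casp8, whose first LLC pool was also the higher one (an order of 26.2% of all genes tested). Gsdmd was the only 1 of the 10 genes that was higher in the second pool of both groups, as were 16.2% of all genes tested. For Casp8, Casp1 and Gsdmd the differences between pools of a group were small, at most 0.17 on the log2 scale. With 2 pools per group these orders are descriptions and carry no test.

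**Figure D4:**
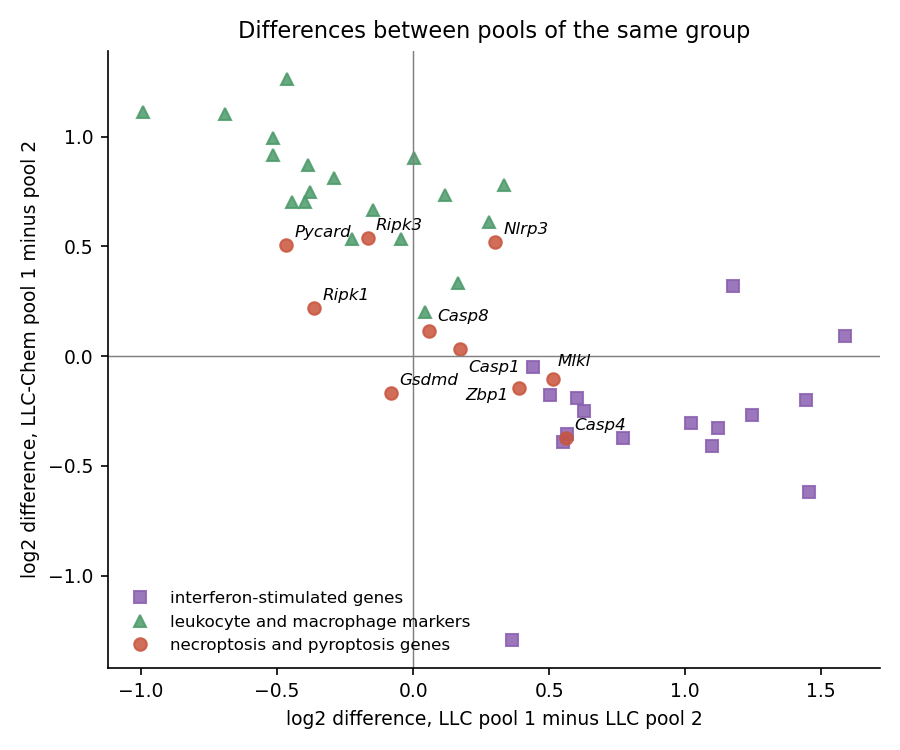
Log2 difference on log2(RPM + 0.5) between the first and second pool of LLC (horizontal axis) and of LLC-Chem (vertical axis) for the 10 necroptosis and pyroptosis genes (red circles), 16 interferon-stimulated genes (purple squares) and the leukocyte and macrophage markers (green triangles). Mlkl, Zbp1 and Casp4 lie in the lower right part with 14 interferon-stimulated genes, and Ripk1, Ripk3 and Pycard in the upper left part with 9 of 12 macrophage markers. Other lists, not drawn, shared these orders, such as 6 of 7 fibroblast markers for the upper left.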

How the data were processed

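Paired-end reads of 4 libraries were mapped by the authors to GRCm38.p4 with STAR and counted on Ensembl genes with HTSeq. The tool versions and the strand setting are not given in the sources used here. The deposited values are RPM of 47729 genes in 4 pools. They are whole multiples of 1 step (100% of nonzero values, within 0.0003 RPM), as if each library had been scaled to 20000000 reads and rounded up, which was inferred from the values. Library totals were fitted from the histogram of these steps and reads recovered to within about 1 read.

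Differences were tested with limma 3.58.1 (lmFit and eBayes with trend) in R 4.3.3 on log2(RPM + 0.5) for the 13694 genes whose mean reached 1 RPM. Tests were two-sided and p-values were adjusted over these genes by the Benjamini-Hochberg method. RPM are not counts, so edgeR 4.0.16 and DESeq2 1.42.0, run on the recovered reads, were alternatives, beside other pseudocounts, filters and scalings, eBayes without trend, the replicate block and leaving out each pool. The fits were tested on simulated data. The crossed pairing was added after the data were seen. Nothing in the sources says that the pools were paired. The pools hold different tumors, but whether the injected cells came from separate cultures is not given, so p-values measure the spread between these pools only.

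The members and lists of genes were chosen with earlier results of these data known. From each list of related genes, up to 4 called genes with the lowest adjusted p and the most abundant gene were to be named, and from each marker list the most abundant gene and those at 0. The result of 1 listed gene is not reported here. Coordinates and exons are from GENCODE M21 (GRCm38) and promoters from RefSeq (GRCm38.p6). Figures were drawn with Python 3.11.15, pandas 2.3.3 and matplotlib 3.10.9.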

Additional observations from a re-analysis of the deposited data

How the results depend on the processing

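With 2 pools per group, limma's calls rest on the spread shared across genes. All 10 genes kept a negative log2 fold change in every alternative but 1, in which Casp4 reached 0.041 without LLC replicate 1 (-0.52 without LLC replicate 2). The number of the 10 genes called lower, 6, became 0 without a filter on low values, where 1 of 26260 genes was called (7397 at an unadjusted p under 0.05), and 3 with eBayes without trend. It ranged from 0 to 0 when 1 pool was left out. It was 4 with a minimum of 0.2 RPM, TMM or median-of-ratios scaling or edgeR's quasi-likelihood test, 5 with its likelihood ratio test and 6 with DESeq2, which called Casp1 in place of Gsdmd. Related genes called lower, 27, became 0 without the filter, 16 without trend and 0 to 0 with 1 pool left out. The 1 called higher, Birc2, became 0 without the filter and 0 to 0 with 1 pool left out, and 2, with Nek7, under both other scalings, the crossed pairing and all 3 count tests. The median log2 fold change of the 10 genes, -0.43, was -0.385 with TMM, -0.389 with both edgeR tests and between -0.589 and -0.478 with 1 pool left out. Rarres2 was not called in any setting.

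The deviations of same-numbered pools correlated at -0.1405 over the genes tested, and the pools share only a number. With the replicate block 3 of the 10 genes (Ripk3, Zbp1 and Nlrp3) and 15 related genes were called lower and 0 related genes higher. With the crossed pairing 6 of the 10 genes and 32 related genes were called lower and 2 higher.

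The 10 genes had 106 reads or more per pool, and counting error was not separated from the spread between pools.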
